A study of Mus musculus with 31 samples.

Results

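The mitosis and spindle genes followed here are 44 genes that act from entry into mitosis to the separation of the daughter cells. They were chosen by name, and each is found in all 31 count tables of the study, which list 55276 genes in the pre-lymphoma and CD4-Cre sets and 49315 genes in the CD4-CreERT2 set. The study sequenced polyA RNA of mouse CD4+ T cells and whole spleens in models of peripheral T cell lymphoma, before lymphoma and in tumor-bearing mice, beside controls. All mice carry the strain label C57B/6; ages, pooling of animals and the timing of any tamoxifen are not given in the sources used here.

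In the pre-lymphoma set, CD4+ cells were labelled CD4-Cre-ERT2(WT) in 2 control libraries. In 3 libraries the genotype label joins that control genotype by a slash with Vav1Myo1ffl/wt;CD4CreERT2 (Vav1Myo1f), a conditional Vav1-Myo1f fusion allele together with a Cre recombinase that needs tamoxifen to act. In 3 more the label carries the fusion genotype on both sides of the slash. The meaning of the slash is not given, and the names control/fusion and fusion/fusion are used here for the pair of groups. In the CD4-Cre set, control mice were CD4-Cre(WT) and tumor mice CD4-CreVav1Myo1f fl/wt, sampled as CD4+ cells (3 control, 4 tumor) and as spleen (3 of each). In the CD4-CreERT2 set, control mice were CD4-CreERT2 (WT) and tumor mice CD4-CreERT2Vav1Myo1f fl/wt, sampled as CD4+ cells (2 of each) and as spleen (3 of each). All control labels thus name the Cre and no fusion allele, and what (WT) refers to in them is not given. CD4-Cre can act in any cell that has expressed Cd4 during its development. The form that needs tamoxifen can act only in cells that hold it while tamoxifen is present. The labels do not say whether the pre-lymphoma libraries came from separate animals, so p-values in that set measure the spread between these libraries, which may be technical.

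Cells enter mitosis when cyclin-dependent kinase 1 binds cyclin A or B, and a spindle of microtubules, motors and crosslinkers then pulls the chromosomes apart at their kinetochores. The spindle checkpoint holds the cell until every chromosome is attached, after which the anaphase-promoting complex marks cyclin B for destruction and a midzone of antiparallel microtubules directs the cleavage of the cell. Transcripts of these genes rise together in G2 and M phase and are low in resting lymphocytes, so their level in bulk RNA reflects how many cells are cycling and how much of each transcript they hold. Fewer cells of a type and less RNA per cell cannot be told apart in such libraries.

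The joint timing of these genes is known to run through their promoters, where the cell cycle homology region (CHR) is bound by MuvB complexes and CCAAT boxes by the factor NF-Y. RefSeq windows from 250 bases before to 50 after the annotated start (assembly GRCm38.p6) were at hand for 36 of the 44 genes, as 38 windows. The letters CCAAT, on either strand, were in 29 of the 38 windows, or 76.3%, against 37.4% of all 32851 windows of the same length. The CHR letters TTTGAA or TTCGAA, on either strand, were in 30 of 38, or 78.9%, against 19.2%. Both stood in 26 of 38, or 68.4%, against 7.52% of all windows, and CCAAT occurred at least 2 times in 55.3% against 11.7%. The E2F letters TTTCCCGC or TTTGGCGC were in 1 of 38 windows, that of Kif15, or 2.63%, against 1.56% of all. The letters of the 3 motifs were counted separately, and a match is a description of letters only. In the 150 bases before the start both motifs stood in 9 of the 38 stretches, and 5 of these are shown as examples of both motifs close to a start. Capitals mark the CCAAT and CHR letters, or their reverse complements where they lie on the other strand, and each stretch reads 5′ to 3′ toward the start.
Cdk1: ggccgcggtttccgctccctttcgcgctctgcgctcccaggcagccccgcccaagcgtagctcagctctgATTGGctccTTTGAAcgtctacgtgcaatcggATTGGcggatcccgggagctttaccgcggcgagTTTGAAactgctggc
Cdc20: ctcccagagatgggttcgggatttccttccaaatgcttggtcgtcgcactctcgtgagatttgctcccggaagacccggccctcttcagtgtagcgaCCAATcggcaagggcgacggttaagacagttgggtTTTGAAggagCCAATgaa
Kif11: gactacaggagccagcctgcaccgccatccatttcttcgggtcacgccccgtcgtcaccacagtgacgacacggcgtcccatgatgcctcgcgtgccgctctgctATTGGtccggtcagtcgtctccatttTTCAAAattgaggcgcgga
Top2a: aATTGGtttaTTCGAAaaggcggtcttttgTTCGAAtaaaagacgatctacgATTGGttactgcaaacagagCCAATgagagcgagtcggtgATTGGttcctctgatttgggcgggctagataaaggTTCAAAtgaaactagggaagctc
Mki67: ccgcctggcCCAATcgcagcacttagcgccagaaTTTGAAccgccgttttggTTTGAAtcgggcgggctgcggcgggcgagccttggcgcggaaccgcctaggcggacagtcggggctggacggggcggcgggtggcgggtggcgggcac
These lie at chr10:69352913-69353062 (minus strand), chr4:118437344-118437493 (minus), chr19:37376232-37376381 (plus), chr11:99024190-99024339 (minus) and chr7:135716380-135716529 (minus). In Cdk1 the stretch holds 2 matches of each motif. In Cdc20 it holds 2 CCAAT and 1 CHR match. In Kif11 it holds 1 match of each, and in Mki67 1 CCAAT and 2 CHR matches. In Top2a the stretch holds 4 CCAAT letters and 3 CHR matches. The windows of Nuf2, Nusap1, Melk, Mad2l1 and Birc5 held none of these letters, which says nothing about the factors.

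Gene counts per library ran from 12632196 to 37568512, and the lowest count of any of the 44 genes in any library was 31, so each was measured well above 0 everywhere. All 44 passed the filter on low counts in every comparison. The tissue labels were checked with markers: 10 T cell genes summed to between 5319 and 7892 CPM (TMM-scaled gene counts relative to library size) in CD4+ libraries and to between 993 and 2826 in spleens, and 2 CD8 T cell genes to 8.58 to 42.6 in CD4+ libraries. CD4+ libraries also held transcripts of other cells. In the CD4+ control libraries of the CD4-Cre set the macrophage and monocyte gene Lyz2 averaged 2542 CPM. The plasma cell gene Jchain averaged 3425 and the B cell gene Cd79a 261, beside 1117 for the T cell gene Lck. Some libraries stand apart. The CD4+ library of tumor mouse VM98 has 34546 genes with a count, against 18368 to 24649 in the others. The spleen library of tumor mouse VM294 has the fewest, 18368. By Xist and Ddx3y, TA020 is the only female library of the pre-lymphoma set. In the CD4-CreERT2 set the controls and tumor mouse VM236 are female and tumor mice VM231 and VM294 male, so sex goes with status in all but VM236 there. In the CD4-Cre set controls VM211 and VM216 and tumor mouse VM388 are male. Control VM645-WT and tumor mice VM58, VM645 and VM98 are female, so sex partly goes with status there too. Control mouse VM645-WT and tumor mouse VM645 share a number but not a genotype label. Exons of 12 of the 44 genes overlap another gene, over at most 33.2% of their length (Kif20a with Cdc23), and without the strand of the reads such overlaps cannot be resolved.

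Before lymphoma, the mitosis and spindle genes were higher in both labelled groups than in control CD4+ cells, and higher in fusion/fusion than in control/fusion cells. Of the 44 genes, 43 rose in control/fusion against control, with a median change of 1.15 on the log2 scale, or 2.21-fold; 11.6% of the 16257 genes tested were called higher in that comparison. All 44 rose in fusion/fusion against control, with a median of 2.04 or 4.12-fold, where 23.8% of all genes tested were called higher. Between fusion/fusion and control/fusion 43 rose, with a median of 0.92 or 1.90-fold, against 9.59% of all genes. None fell in these comparisons. For all 44 genes, every fusion/fusion library was above every control/fusion library and every control/fusion library above every control library, an order that 10.1% of all genes tested showed. The median change over all genes tested was 0.00, -0.01 and 0.00 in the 3 comparisons. The first and second comparison share their control libraries, so their values are given side by side and not as independent evidence. The tests are edgeR's quasi-likelihood F test with Benjamini-Hochberg adjustment over all genes tested, and changes are given as log2 fold changes ± standard error.

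**Figure D1:**
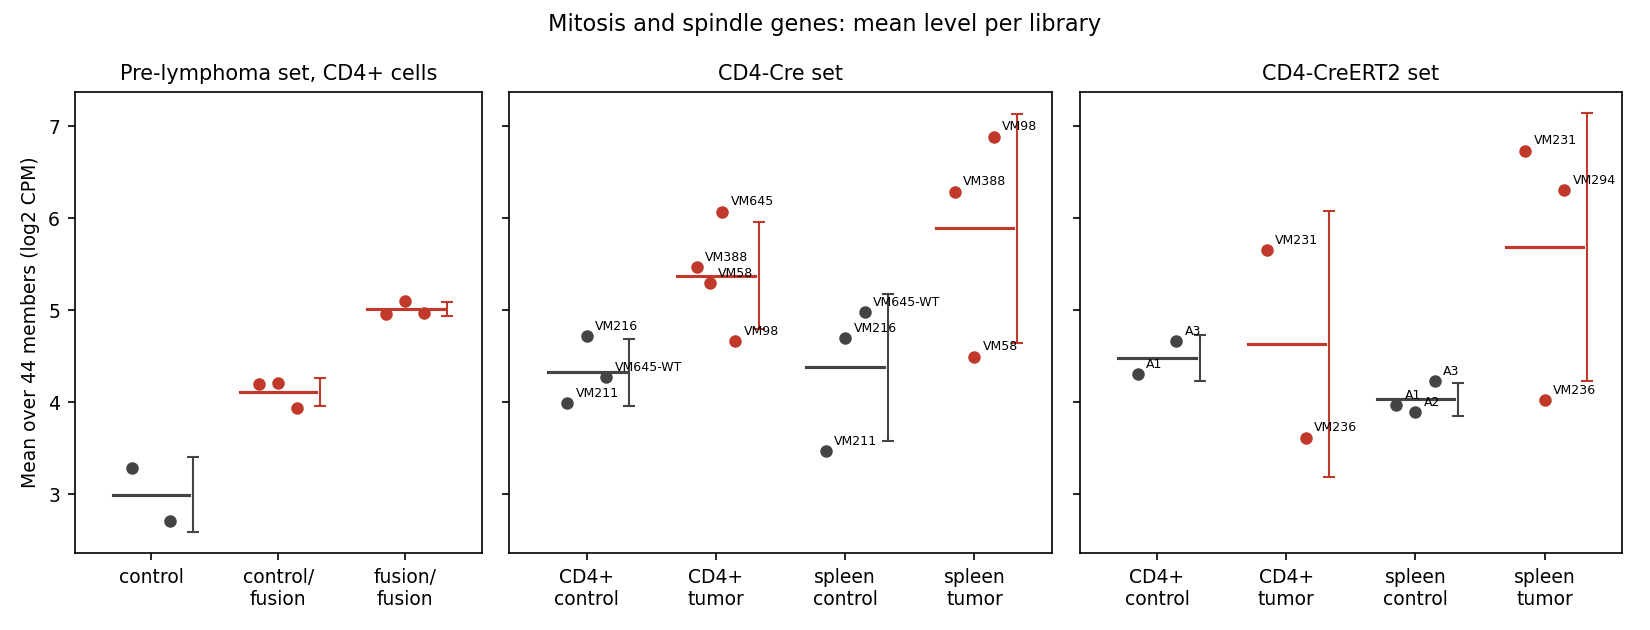
Mean log2 CPM over the 44 genes (y axis) in each library (points), by group within each set; horizontal lines are group means, bars the SD between libraries, and tumor-set points carry the mouse number. The 3 pre-lymphoma groups do not overlap (control 2.71 to 3.28, control/fusion 3.93 to 4.21, fusion/fusion 4.96 to 5.10), while the tumor groups spread widely, from 3.61 to 5.66 in CD4+ cells and from 4.02 to 6.73 in spleens of the CD4-CreERT2 set.

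The mean log2 CPM over the 44 genes was 3.28 and 2.71 in the control libraries, 4.19, 4.21 and 3.93 in control/fusion and 4.96, 5.10 and 4.97 in fusion/fusion. The control libraries differed from each other by more than the libraries within either of the other groups, and the second of them, TA019, was the lowest of the set. Reads placed in no gene, as a share of these reads and the gene counts together, were 11.6% and 13.7% in control. They were 9.66%, 9.32% and 10.5% in control/fusion and 8.99%, 7.785% and 8.92% in fusion/fusion. This share thus also separated the 3 groups, in the reverse order of the mean of the 44 genes. Its part in the rise was not tested. Without TA019, 29 genes rose in control/fusion against control, with a median of 0.83 (3.28% of all genes were called higher in that fit), and all 44 rose in fusion/fusion (16.5% of all genes).

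Among the proliferation markers, Mki67 (ENSMUSG00000031004; chromosome 7, 135689784 to 135716361, minus strand in GRCm38) encodes the Ki-67 protein that coats mitotic chromosomes. It stood at 94.2 and 66.02 CPM in control, 183, 177 and 155 in control/fusion and 299.9, 292 and 289 in fusion/fusion libraries. The groups do not overlap, and the fusion/fusion libraries lie within a narrow range of each other. Mki67 changed by 1.098 ± 0.13 (adjusted p = 0.00074) in control/fusion and by 1.87 ± 0.13 (adjusted p = 7.3e-06) in fusion/fusion against control, by edgeR. Top2a, the topoisomerase that untangles sister chromatids, rose by 1.19 ± 0.19 and 1.99 ± 0.198. The kinase genes Pbk and Melk, both known as transcripts of proliferating cells, had the largest changes in control/fusion. Melk (ENSMUSG00000035683; chromosome 4, 44300876 to 44364675, plus strand) stood at 3.82 and 2.08 CPM in control, 10.1, 10.7 and 8.97 in control/fusion and 13.7, 16.02 and 15 in fusion/fusion. Its control and control/fusion libraries are far apart and its fusion/fusion libraries only moderately higher, with changes of 1.75 ± 0.23 and 2.33 ± 0.23 against control and 0.59 ± 0.18 between the fusion groups. Pbk (ENSMUSG00000022033; chromosome 14, 65805837 to 65817822, plus strand) was measured at 2.49 and 1.22 CPM in control, at 6.597, 5.71 and 5.21 in control/fusion and at 10.5, 12.3 and 9.42 in fusion/fusion and had the largest change in fusion/fusion, 2.54 ± 0.27.

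CDK1 and its cyclins had changes of like size. Cdk1 (ENSMUSG00000019942; chromosome 10, 69336635 to 69352938, minus strand), the kinase that starts mitosis, stood at 9.38 and 5.61 CPM in control, 19.8, 17.6 and 16.3 in control/fusion and 32.3, 43.6 and 34.4 in fusion/fusion. Its changes were 1.25 ± 0.21 and 2.29 ± 0.21, with no overlap between groups. Ccnb1 (ENSMUSG00000041431; chromosome 13, 100778650 to 100786570, minus strand), cyclin B1, was measured at 7.43 and 4.59 CPM in control, at 13.9, 15.2 and 11.2 in control/fusion and at 30.2, 32.7 and 29.7 in fusion/fusion, and was among the 3 genes with the largest step from control/fusion to fusion/fusion (1.22 ± 0.16, adjusted p = 0.0013 by edgeR). Ccna2, Ccnb2 and Cdca3, the last a trigger of mitotic entry, rose by 2.27, 2.399 and 2.22 in fusion/fusion. Over the 5 genes of this role the changes lay between 1.13 and 1.31 in control/fusion and between 2.22 and 2.40 in fusion/fusion.

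Foxm1 (ENSMUSG00000001517; chromosome 6, 128362967 to 128376146, plus strand), a forkhead factor that drives transcription in G2 and M phase, stood at 11.5 and 7.45 CPM in control, 20.8, 19.1 and 13.9 in control/fusion and 29.2, 30.6 and 28.98 in fusion/fusion. It rose by 0.904 ± 0.199 and 1.64 ± 0.2, less than most of the 44. Among the mitotic kinases, Plk1 (ENSMUSG00000030867; chromosome 7, 122159439 to 122169873, plus strand), polo-like kinase 1, was measured at 9.26 and 6.63 CPM in control, at 15.7, 15.3 and 13.8 in control/fusion and at 30.8, 38.5 and 31.6 in fusion/fusion and rose by 0.91 ± 0.16 and 2.08 ± 0.16. Aurka, the kinase of spindle poles, rose by 0.95 and 1.99, and the centrosomal kinase gene Nek2 by 1.34 and 2.34.

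The chromosomal passenger complex corrects faulty attachments and joins Aurora B to INCENP, survivin (Birc5) and borealin (Cdca8). Aurkb (ENSMUSG00000020897; chromosome 11, 69045647 to 69051664, plus strand) was measured at 7.01 and 4.86 CPM in control, 14.8, 16.4 and 13.7 in control/fusion and 26.98, 31.97 and 25.99 in fusion/fusion, with changes of 1.33 ± 0.17 and 2.25 ± 0.17. Birc5 and Cdca8 rose by 2.38 and 2.19 in fusion/fusion. Incenp (ENSMUSG00000024660; chromosome 19, 9872297 to 9899533, minus strand), the scaffold of the same complex, was measured at 45.7 and 42.8 CPM in control, at 66.95, 72.9 and 65.7 in control/fusion and at 87.2, 106 and 95.1 in fusion/fusion. Its groups were ordered in the same way, but its changes of 0.63 ± 0.09 and 1.12 ± 0.09 were the smallest of the complex, and its step of 0.49 ± 0.08 between the fusion groups was the smallest of the 44.

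Of the spindle checkpoint genes, the kinase gene Bub1 (ENSMUSG00000027379; chromosome 2, 127801122 to 127831865, minus strand) was measured at 5.06 and 2.08 CPM in control, 7.797, 8.34 and 8.14 in control/fusion and 15.2, 18.04 and 14.9 in fusion/fusion. The control libraries differ from each other by more than 2-fold, and the changes were 1.19 ± 0.29 and 2.17 ± 0.29. Ttk, the kinase that recruits the checkpoint proteins, was the single gene that did not pass in control/fusion (0.66 ± 0.25, adjusted p = 0.091 by edgeR). It had the largest step between the fusion groups, 1.33 ± 0.21, from 2.62, 3.68 and 3.52 to 7.505, 7.66 and 9.89 CPM. Mad2l1, the checkpoint protein that blocks CDC20, rose by 0.46 ± 0.099 and 1.15 ± 0.099, among the 3 smallest changes in both comparisons.

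Centromere and kinetochore genes had both large and small changes. Cenpa (ENSMUSG00000029177; chromosome 5, 30666777 to 30674830, plus strand), the histone H3 variant of centromeres, stood at 38.5 and 36.8 CPM in control, 47.4, 51.1 and 44.9 in control/fusion and 65.6, 73.9 and 68.1 in fusion/fusion. Its changes were the smallest of the 44 against control, 0.34 ± 0.08 (adjusted p = 0.015) and 0.88 ± 0.08 (adjusted p = 2.6e-05) by edgeR; without either control library the first no longer passed. Within the NDC80 complex, which grips microtubules, Nuf2 rose by 2.44 ± 0.17 and Ndc80 by 1.15 ± 0.13 in fusion/fusion, with Spc24 and Spc25 at 2.005 and 2.03 between them. The kinetochore genes Cenpe and Cenpf rose by 1.94 and 2.06.

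The activator of the anaphase-promoting complex, Cdc20 (ENSMUSG00000006398; chromosome 4, 118432901 to 118437352, minus strand), was measured at 10.5 and 8.43 CPM in control, 19.6, 18.2 and 14.9 in control/fusion and 34.2, 39.6 and 34.4 in fusion/fusion, and rose by 0.88 ± 0.15 and 1.93 ± 0.15. Its partner Ube2c, the ubiquitin-conjugating enzyme of that complex, rose by 2.53 ± 0.19 in fusion/fusion, the second largest change. Among the motors, Kif11 (ENSMUSG00000012443; chromosome 19, 37376403 to 37421859, plus strand), which pushes spindle poles apart, was measured at 20.3 and 13.4 CPM in control, at 40.9, 39.7 and 28.4 in control/fusion and at 68.7, 66.2 and 64.6 in fusion/fusion and rose by 1.099 ± 0.18 and 1.99 ± 0.19. Kif4, a chromosome-bound motor, rose by 2.46 ± 0.14. Of the spindle-associated proteins, Nusap1 (ENSMUSG00000027306; chromosome 2, 119618298 to 119651244, plus strand), a microtubule bundler, was measured at 9.96 and 7.96 CPM in control, at 23.99, 26.8 and 21.8 in control/fusion and at 44.6, 48.3 and 45.2 in fusion/fusion. It rose by 1.43 ± 0.12 (adjusted p = 0.00018) and 2.36 ± 0.12 (adjusted p = 1.4e-06) by edgeR, and Tpx2 and Hmmr by 2.34 and 2.32 in fusion/fusion.

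In fusion/fusion the midzone and cytokinesis genes rose least as a role, with a median of 1.63 against 2.04 over all 44, just below the change of Foxm1. Across the 44 genes the change over control fell with exonic length in these libraries, with Spearman correlations of -0.15, -0.42 and -0.31. In control/fusion the correlations were -0.09, -0.07 and -0.10. Of this role, Anln, Prc1, Kif23 and Racgap1 have 7079 to 9063 exonic bases, Ect2 5386 and Kif20a 3796. The part of length was not tested. Racgap1 (ENSMUSG00000023015; chromosome 15, 99620496 to 99651656, minus strand), a part of the centralspindlin complex of the midzone, stood at 25.9 and 21.3 CPM in control, 45.96, 48.5 and 44.6 in control/fusion and 73.98, 77.9 and 70.5 in fusion/fusion, with changes of 0.97 ± 0.09 and 1.65 ± 0.09. Its motor partner Kif23 rose by 0.68 and 1.26. Prc1, the microtubule crosslinker of the midzone, rose by 1.75, Kif20a by 1.61 and the exchange factor gene Ect2 by 1.58. Anln, the anillin of the contractile ring, was the single gene that did not pass between fusion/fusion and control/fusion (0.62 ± 0.22, adjusted p = 0.071 by edgeR), with 10.3, 9.16 and 6.69 against 15.4, 11.1 and 13.2 CPM.

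**Figure D2:**
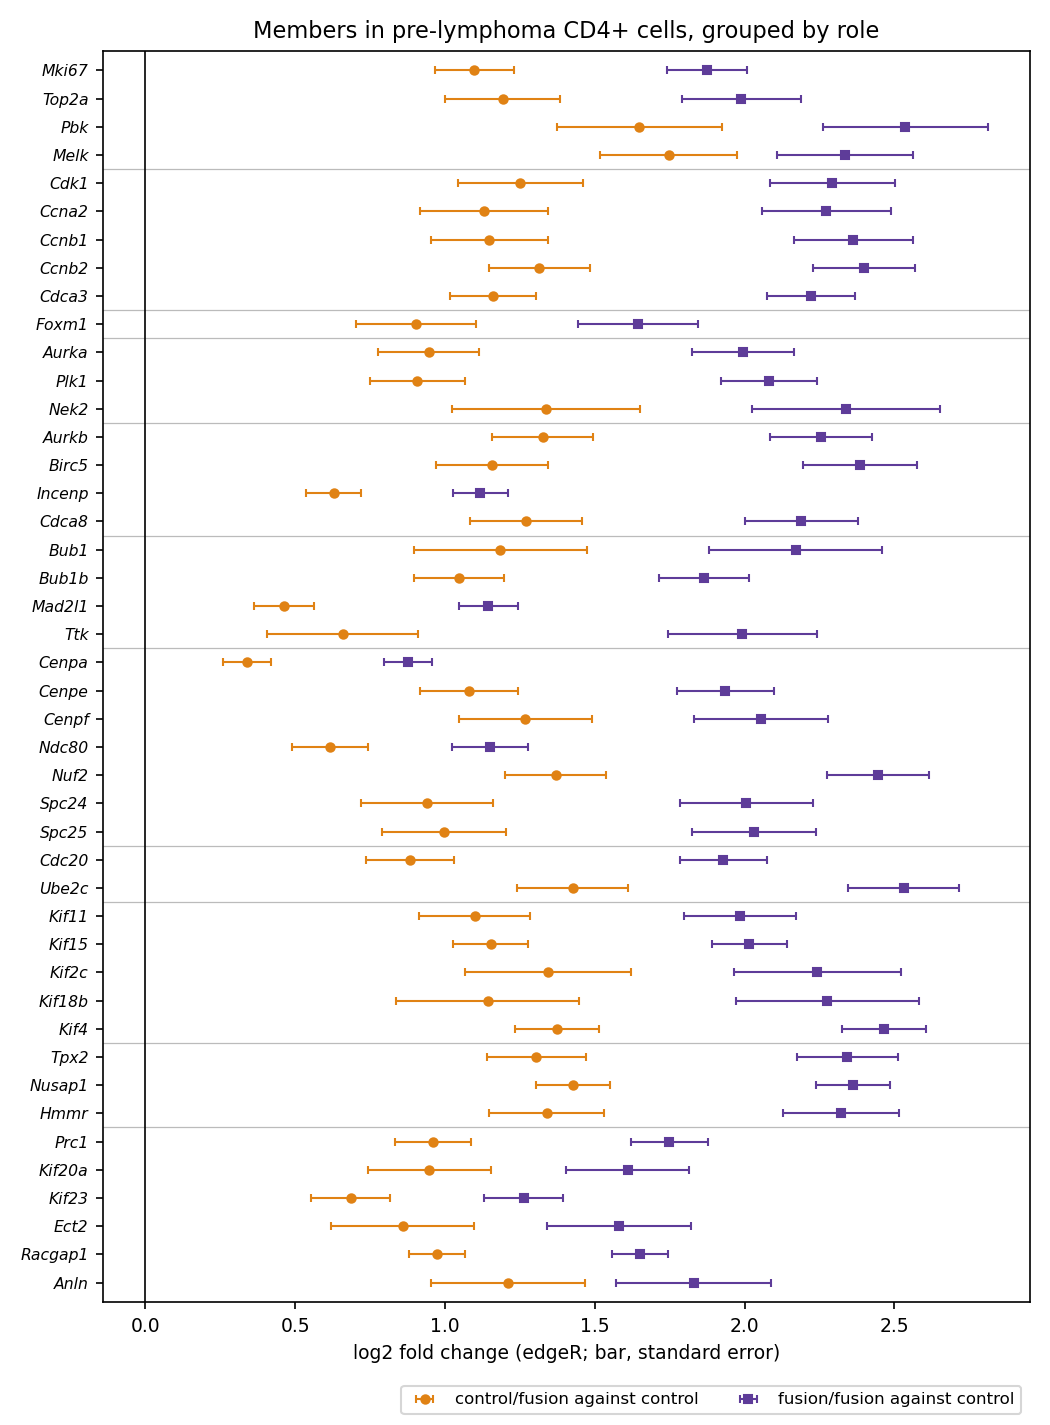
log2 fold change (x axis; bars, standard error) of each of the 44 genes in control/fusion (circles) and fusion/fusion (squares) against control CD4+ cells, with grey lines between roles. Every square lies to the right of its circle; Cenpa is lowest in both comparisons (0.34 and 0.88), and Melk (1.75) and Pbk (2.54) are highest.

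A wider list of 71 other mitosis genes was chosen by function, with earlier results of these data known. It moved in the same direction less fully. Of these genes 47 rose and 1 fell in control/fusion, 61 and 1 in fusion/fusion, and 50 and 0 between the fusion groups. The share of all genes tested called lower was 8.7%, 22% and 9.3% in the 3 comparisons. The largest changes of this list in fusion/fusion were those of Cdc25c, a phosphatase that activates CDK1 (2.47 ± 0.27), Depdc1a (2.402 ± 0.31) and Ckap2, a spindle protein (2.38 ± 0.17). The gene that fell was Ncapd3, a condensin II subunit (-0.61 ± 0.09); Pkmyt1, a kinase that restrains CDK1, and Smc4, a condensin subunit, did not pass (-0.14 ± 0.08 and -0.11 ± 0.08). Of 20 DNA replication genes 15, 19 and 15 rose and none fell. Their median changes of 0.64, 1.01 and 0.44 lie below the 1.15, 2.04 and 0.92 of the mitosis and spindle genes. Per library, the mean log2 CPM of the mitosis and spindle genes was below that of the replication genes by 1.31 and 1.602 in control, by 0.90 to 1.02 in control/fusion and, in fusion/fusion, by 0.46 to 0.52, with no overlap between the groups.

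Regulators of mitotic transcription were mixed. Of 18 such genes 7 rose in control/fusion, 8 rose and 2 fell in fusion/fusion, and 6 rose and 1 fell between the fusion groups. Those with the largest changes were the E2F family genes E2f8 (2.24 ± 0.25 in fusion/fusion) and E2f7 (2.13 ± 0.19), the atypical repressors of the family, and the activator E2f1 (1.51 ± 0.14). Mybl2, the B-MYB partner of MuvB, rose by 1.35 ± 0.15 in fusion/fusion, and its 0.47 ± 0.15 in control/fusion did not pass (adjusted p = 0.051 by edgeR). Lin54, the MuvB subunit that binds CHR letters, fell by 0.42 in fusion/fusion, and Nfya, a subunit of the CCAAT-binding factor NF-Y, by 0.52. The MuvB genes Lin9, Lin37 and Lin52 had changes of -0.04, 0.1 and -0.05 and did not pass.

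Markers of other cells also moved in this set, where 11.6%, 23.8% and 9.59% of all genes tested were called higher in the 3 comparisons. The 12 erythroid genes, which belong to precursors that divide, summed to 121 and 197 CPM in control, 226 to 738 in control/fusion (highest in the female library TA020) and 446 to 523 in fusion/fusion, and 8, 11 and 0 of them rose in the 3 comparisons. The 6 plasma cell genes summed to 437 and 668 CPM in control, 604 to 724 in control/fusion and, in fusion/fusion, 1285 to 1476, and 1, 5 and 5 rose. The 6 myeloid precursor genes summed to 3.90 CPM or less in every library, and both of those that could be tested rose in fusion/fusion. The 8 macrophage and monocyte genes summed to 1346 and 1597 CPM in control, 1551 to 3296 in control/fusion and, in fusion/fusion, 1708 to 2156. The 5 dendritic cell genes summed to 53.8 and 33.7 CPM in control, 99.2 to 143 in control/fusion and, in fusion/fusion, 125 to 151; 5, 4 and 1 of them rose in the 3 comparisons, and 4 of 5 neutrophil genes rose between the fusion groups. The 5 germinal centre B cell genes summed to 17.4 and 39.1 CPM in control, 27.6 to 29.5 in control/fusion and, in fusion/fusion, 38.5 to 47.2. The 10 T cell genes summed to 5842 and 6008 CPM in control, 5648 to 6285 and 6183 to 6689 in the other groups. Calls are not given here for the macrophage, germinal centre and T cell lists, or for neutrophil genes in the other comparisons. The part of other cells in the rise of the mitosis and spindle genes was not tested. Without TA020, 42, 44 and 40 genes rose in the 3 comparisons, where 8.52%, 23.4% and 7.29% of all genes were called higher.

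In CD4+ cells of the CD4-Cre set, the mitosis and spindle genes were higher in most tumor libraries than in controls, but none passed the test. The mean log2 CPM over the 44 genes was 3.99, 4.72 and 4.27 in control mice VM211, VM216 and VM645-WT, and 5.47, 5.29, 6.07 and 4.66 in tumor mice VM388, VM58, VM645 and VM98. VM98 lay among the controls and the other 3 tumor libraries above them. Reads placed in no gene, as the share used above, were 15.95%, 14.985% and 14.2% in these controls. In the tumor libraries they were 18.4%, 16.5%, 17.9% and 24.9%, so this share was higher in every tumor library and highest in VM98. Its part in these levels was not tested. All 44 fitted changes were positive, between 0.30 (Kif23) and 1.599 (Cdca8), with a median of 1.13, against a median of 0.06 over all genes. By edgeR 0 of the 44 passed after adjustment and 33 had an unadjusted p under 0.05, against 15.1% of all genes in either direction; the smallest adjusted p of the 44 was 0.068. In this comparison 0.0168% of the 17841 genes tested were called higher. DESeq2 called 16 of the 44 higher (3.02% of all genes), and edgeR called 10 without the CD4+ library of VM98 (1.44% of all genes) and 8 without the filter on low counts (0.652%). Without VM645 the median was 0.81, and without both mice numbered VM645 it was 0.77, with 0 passing in either. For 22 of the 44, every tumor library was above every control library, against 8.36% of all genes tested. Singly, VM645 was above every control for 44 genes, VM388 for 41, VM58 for 39 and VM98 for 23, and VM98 was below every control for 5.

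Values per library are given in the order of mice used for the means. Cdca8, borealin, stood at 20.4, 30.6 and 23.1 CPM in control and 81.2, 65.6, 124 and 36.7 in tumor CD4+ libraries of this set, with a change of 1.599 ± 0.39. The groups do not overlap, and VM645 is highest. Ube2c stood at 15.6, 38.2 and 32.6 CPM in control against 84.03, 50.8, 154 and 52.5 in tumor, changed by 1.53 ± 0.47, and was again highest in VM645. Mki67 stood at 38.1, 65.8 and 42.2 CPM in control and 152, 103, 143 and 83.2 in tumor libraries (1.26 ± 0.28); here VM388 is slightly above VM645, and the lowest tumor library, VM98, is still above every control. Cdk1 stood at 17.5, 32.9 and 26.6 CPM in control against 66.6, 43.2, 114 and 35.6 in tumor (1.29 ± 0.43), and Ccnb1 at 29.6, 54.3 and 39.6 CPM in control against 131, 77.4, 176 and 47.6 in tumor (1.35 ± 0.44). For Ccnb1 the VM98 library is below control VM216, and for Cdk1 it is just above it, so only the first overlaps.

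Cenpa, which changed least before lymphoma, stood at 43.5, 56.6 and 54.8 CPM in control and 128, 119.9, 184 and 83.7 in tumor libraries, without overlap and with a change of 1.28 ± 0.27. Cdc20 stood at 22.8, 35.5 and 29.5 CPM in control against 85.8, 68.2, 99.02 and 65.4 in tumor (1.41 ± 0.23), Plk1 at 16.8, 20.5 and 19.2 CPM in control against 49.3, 45.5, 58.7 and 26.3 in tumor (1.22 ± 0.27) and Bub1 at 6.68, 11.6 and 6.23 CPM in control against 19.2, 22.4, 29.4 and 13.9 in tumor (1.34 ± 0.35), all without overlap. Foxm1 stood at 8.803, 16.2 and 7.73 CPM in control against 26.02, 31.2, 18.1 and 22.8 in tumor (1.13 ± 0.33) and, without overlap, was highest in VM58 and lowest of the tumor libraries in VM645. Aurkb at 23.4, 43 and 26.1 CPM in control against 66.5, 73.4, 112 and 25.3 in tumor, Nusap1 at 16.5, 35.4 and 28.5 CPM in control against 49.95, 37.5, 91.1 and 30.9 in tumor, and Incenp at 44.5, 55.8 and 45.5 CPM in control against 95.1, 114, 90.8 and 52.2 in tumor overlapped, with VM98 inside the control range. Kif11 stood at 16.9, 43.6 and 26.5 CPM in control and 42.1, 39.6, 94.8 and 36.7 in tumor libraries and was far higher in VM645 than in the others, while VM216 was above 3 of the 4 tumor libraries. The smallest changes were those of 3 cytokinesis genes, with Racgap1 at 67.04, 66.8 and 55.4 CPM in control against 76.8, 97.2, 117 and 47.3 in tumor (0.39 ± 0.29), Kif23 at 0.305 ± 0.38 and Anln at 0.55 ± 0.53. The other midzone genes had larger changes, of 0.89 ± 0.25 (Prc1), 1.12 ± 0.36 (Kif20a) and 1.21 ± 0.21 (Ect2).

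The 6 myeloid precursor genes were all at 0 in the CD4+ library of VM388, in which 41 of the 44 mitosis and spindle genes were above every control, and summed to 0.259 CPM in VM58, 12.4 in VM645 and 55.7 in VM98, against 4.27 to 23.1 in the controls. The 6 B cell genes summed to 62.4 CPM in VM645, the library with the highest mean of the 44, and to 595 to 853 in the other tumor and 737 to 1236 in the control libraries. The summed levels of macrophage, dendritic and NK cell genes were lower in these tumor libraries, while single genes of these lists, Marco and Xcr1, had positive fitted changes that did not pass. The 8 macrophage and monocyte genes summed to 3917 to 5597 CPM in control and 410 to 3626 in tumor, the 5 dendritic cell genes to 223 to 324 and 26.1 to 87.6, and the 4 NK cell genes to 104.5 to 155 and 6.32 to 90.7, each without overlap and each lowest in VM645. Of the macrophage list, 1 gene passed, the scavenger receptor gene Cd163 (46.02, 42.7 and 40.2 CPM in control against 1.66, 1.87, 0.48 and 0.76 in tumor; -5.19 ± 0.48, adjusted p = 0.014 by edgeR). Adgre1, the gene of F4/80, stood at 169.6, 178 and 195 CPM in control against 17.5, 22.4, 3.02 and 38.2 in tumor. None of the dendritic cell genes passed; Siglech, a marker of plasmacytoid dendritic cells, stood at 153, 139 and 133 CPM in control against 11.7, 18.2, 3.81 and 39.2 in tumor. The part of these cells in the level of the mitosis and spindle genes was not tested.

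In whole spleen of the CD4-Cre set, 2 of the 3 tumor libraries had far higher levels than controls and the third did not. The mean log2 CPM over the 44 genes was 3.47, 4.69 and 4.98 in VM211, VM216 and VM645-WT and 6.29, 4.50 and 6.89 in VM388, VM58 and VM98. VM388 and VM98 were above every control for all 44 genes, VM58 for 7 and below every control for 3. All 44 changes were positive, from 0.72 (Mad2l1) to 2.71 (Foxm1), with a median of 1.71, against 0.04 over all genes. By edgeR 0 of the 44 and 0 of the 17050 genes tested (0%) passed, with 27 of the 44 under 0.05 before adjustment, against 13.9% of all genes in either direction. DESeq2 called 11 higher (1.67% of all genes), and 5 were called by edgeR without the filter on low counts (0.287%). For 7 genes, or 15.9% of the 44, every tumor library was above every control, against 11.1% of all genes tested, a share near that of all genes.

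Foxm1 had the largest change here, at 3.54, 7.597 and 8.02 CPM in control and 39.2, 18.03 and 69.4 in tumor spleens (2.71 ± 0.55), and is one of the 7 without overlap. The others were Nek2, Incenp, Kif15, Kif2c, Kif18b and Kif20a. Incenp stood at 17.4, 35.7 and 42.9 CPM in control against 107, 60.7 and 154 in tumor (1.74 ± 0.43). Mki67 stood at 26.7, 57.3 and 55.2 CPM in control and 233, 51.02 and 273 in tumor spleens (1.98 ± 0.61), and Ccnb1 at 21.2, 60.9 and 76.4 CPM in control against 268, 41.5 and 335 in tumor (2.004 ± 0.77). In both the VM58 library lay within the control range. Cdk1, at 14.7, 35.3 and 54.97 CPM in control against 118, 27.4 and 153 in tumor, Plk1, at 11.5, 33.3 and 36.2 CPM in control against 101, 27.7 and 175 in tumor, Aurkb, at 22.5, 39.3 and 51.3 CPM in control against 120.2, 47.8 and 194 in tumor, and Cdc20, at 18.7, 43.3 and 59.9 CPM in control against 189, 39.6 and 203 in tumor, showed the same split of libraries. So did Bub1 (4.29, 9.07 and 12.6 CPM in control against 37.9, 11.8 and 74.7 in tumor), Kif11 (11.7, 30.2 and 34.4 CPM in control against 80.7, 27.04 and 166 in tumor) and Nusap1 (16.1, 36.5 and 40.5 CPM in control against 73.1, 21.6 and 145 in tumor). Cenpa, at 38.1, 53.1 and 71.9 CPM in control against 79.1, 63.97 and 171 in tumor, was highest in VM98, with VM388 just above the controls, and Racgap1, at 60.5, 73.6 and 74.7 CPM in control against 196, 50.3 and 250.2 in tumor, was lowest of these spleens in VM58. The smallest changes were those of Mad2l1 (0.72 ± 0.44), Ndc80 (0.84 ± 0.37) and Spc25 (0.91 ± 0.72).

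The high spleens differed in their other cells. The 6 myeloid precursor genes, among them Mpo and Elane, summed to 5844 CPM in VM98 and to 3.50 in VM388 and 13.6 in VM58, against 111 to 1037 in control spleens. The 5 germinal centre B cell genes summed to 864 CPM in VM388 and to 55.6 to 67.7 in the other tumor and 39.2 to 78.9 in the control spleens. The 12 erythroid genes summed to 478 CPM in VM98 and to at most 125 in the other spleens of the set. The 8 macrophage and monocyte genes summed to 22000 CPM in VM98, 4282 in VM388 and 3889 in VM58, against 12690 to 23780 in control spleens. The part of these cells in the level of the mitosis and spindle genes was not tested. Without VM98 the median change was 1.21, and without VM58 2.15, with 0 of the 44 passing in either.

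**Figure D3:**
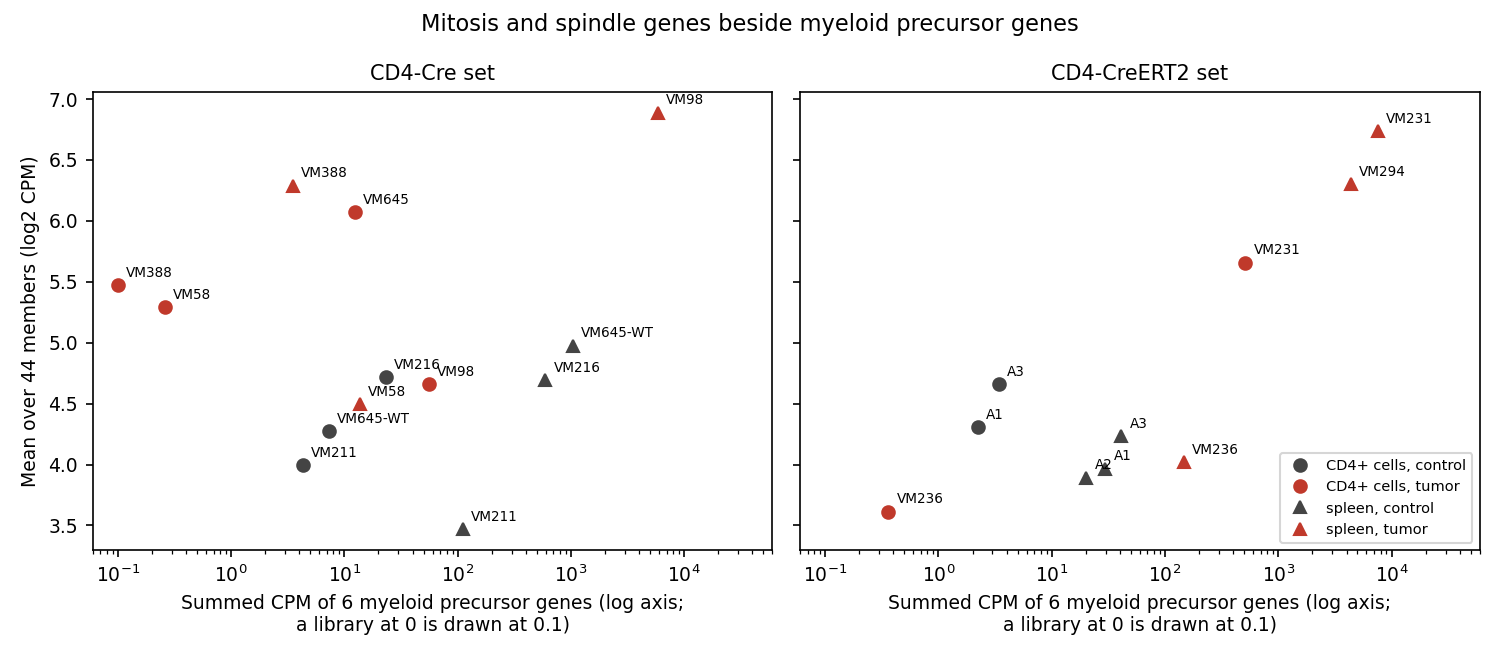
Mean log2 CPM over the 44 genes (y axis) against the summed CPM of 6 myeloid precursor genes (x axis, log scale, with the library at 0 drawn at 0.1) in each library of both tumor sets; circles are CD4+ cells, triangles spleens, red tumor and grey control. The spleens of VM98, VM231 and VM294 stand at the upper right, with 4345 to 7568 CPM of myeloid precursor genes, while VM388 is high for the 44 genes with 3.50 CPM in spleen and 0 in CD4+ cells.

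In CD4+ cells of the CD4-CreERT2 set, the 2 tumor libraries went opposite ways. The mean log2 CPM over the 44 genes was 4.31 and 4.66 in control mice A1 and A3, 5.66 in tumor mouse VM231 and 3.61 in VM236. VM231 was above both controls for 42 genes, and VM236 was below both for all 44. Fitted changes were positive for 41 genes with a median of 0.51; by edgeR 0 of the 44 and 0 of the 17341 genes tested (0%) passed, before adjustment 0 of the 44 were under 0.05, against 5.17% of all genes, and 0 were called by DESeq2. No gene of the 44 had every tumor library above every control, against 13.4% of all genes tested. Without VM236, 34 of the 44 passed as higher, with a median of 1.22, where 10.4% of all genes were called higher, and without VM231 the median was -0.94 and 0 passed; in both the lone tumor library is assumed to vary like the controls. With a term for sex the median was -0.93. VM231 is the only male CD4+ library of this set, so that fit compares VM236 alone with the controls. Mki67 stood at 32.3 and 45.5 CPM in A1 and A3 and at 84.4 and 18.97 in VM231 and VM236. Ccnb1 stood at 48.2 and 62.9 CPM in the controls and 180 and 24.1 in the tumor libraries, Cdk1 at 20.8 and 27.4 CPM in control against 65.7 and 11.1 in tumor, and Plk1 at 27.8 and 32.1 CPM in control against 76.9 and 11.3 in tumor. The controls lie between the tumor libraries for each of them. The same order held for Aurkb (25.9 and 33.96 CPM in control against 65.2 and 14.4 in tumor), Bub1 (9.67 and 12.8 CPM in control against 28.6 and 5.26 in tumor), Cenpa (55.2 and 63.8 CPM in control against 85.9 and 40.8 in tumor) and Cdc20 (39.8 and 48.4 CPM in control against 104 and 21.1 in tumor). It also held for Kif11 (23.9 and 35.1 CPM in control against 74.9 and 20.98 in tumor), Nusap1 (28.8 and 36.1 CPM in control against 73.6 and 16.4 in tumor), Racgap1 (49.7 and 65.1 CPM in control against 93.05 and 45.9 in tumor) and Incenp (35.05 and 33.1 CPM in control against 40.2 and 31.2 in tumor). Foxm1, at 8.27 and 11.7 CPM in control against 10.6 and 5.11 in tumor, and Kif23 (-0.32 ± 0.33) were the exceptions, since VM231 did not exceed both controls. The 6 myeloid precursor genes summed to 510 CPM in the CD4+ library of VM231, 0.360 in VM236 and 2.23 and 3.41 in the controls, and the 5 neutrophil genes to 5391, 73.7, 56.8 and 37.5. The 8 macrophage and monocyte genes summed to 2908 and 2897 CPM in the tumor libraries and 486 and 894 in the controls, and the 5 dendritic cell genes to 466 and 124 against 56.3 and 106. Their part in the level of the 44 genes was not tested.

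In whole spleen of the CD4-CreERT2 set, the levels were high in VM231 and VM294 and near the controls in VM236. The mean log2 CPM over the 44 genes was 3.97, 3.89 and 4.23 in A1, A2 and A3 and 6.73, 4.02 and 6.30 in VM231, VM236 and VM294. VM231 was above every control for 44 genes, VM294 for 41 and below every control for 2, and VM236 above for 20 and below for 15. All 44 changes were positive, from 0.66 (Nek2) to 3.55 (Spc25), with a median of 2.11, against -0.02 over all genes. By edgeR 0 of the 44 and 0 of the 16163 genes tested (0%) passed, with 35 of the 44 at an unadjusted p under 0.05, against 20.1% of all genes in either direction. DESeq2 called 23 of the 44 higher (7.28% of all genes), edgeR without the filter 6 (1.35%), and edgeR without VM236 32 (4.19%). For 20 genes every tumor library was above every control, against 15.2% of all genes tested. With a term for sex, fitted where VM236 is the only female tumor mouse, the median was 0.03.

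Spc25 had the largest change in these spleens, at 14.8, 12.6 and 12.9 CPM in control and 91.7, 21.02 and 335 in tumor libraries (3.55 ± 0.95). Cdca8 stood at 18.1, 20.4 and 21.9 CPM in control against 155, 39.2 and 464 in tumor (3.51 ± 0.87) and Pbk at 7.46, 8.37 and 9.53 CPM in control against 81.8, 11.8 and 150.5 in tumor (3.33 ± 0.86). All 3 were highest in VM294. Nek2 stood at 19.3, 11.8 and 19.8 CPM in control and 58.9, 15.9 and 4.61 in tumor libraries (0.66 ± 0.82), with VM294 lowest of the set. Incenp, at 28.1, 27.9 and 39.3 CPM in control against 128, 14.8 and 25.8 in tumor (0.85 ± 0.78), and Foxm1, at 5.69, 7.59 and 11.5 CPM in control against 61.8, 1.94 and 11.6 in tumor, stood far above the controls in VM231 alone. VM294 thus differed from the other high libraries in which of the 44 genes were high. Relative to the control mean, the 44 genes had an SD among themselves of 1.41 (log2) in VM294, with extremes of -1.83 for Nek2 and 4.64 for Spc25, against 0.28 to 0.58 in the other tumor and pre-lymphoma libraries. VM294 also has the fewest genes with a count.

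Mki67 stood at 27.4, 28.6 and 38.9 CPM in control and 158, 14.1 and 221 in tumor spleens of this set, Cdk1 at 10.8, 11.2 and 15.5 CPM in control against 114, 20.9 and 216 in tumor, and Ccnb1 at 40.97, 32.7 and 36.8 CPM in control against 267, 43.5 and 424 in tumor. For Mki67 the VM236 library was below every control, and for Cdk1 and Ccnb1 above. Plk1 stood at 19.5, 14.3 and 21.1 CPM in control against 142, 25.5 and 38.6 in tumor, Aurkb at 23.4, 24.3 and 27.8 CPM in control against 139.9, 24.6 and 65.4 in tumor, Bub1 at 6.79, 8.23 and 9.45 CPM in control against 70.6, 5.86 and 58.3 in tumor, and Cdc20 at 36.3, 31.02 and 38.4 CPM in control against 199, 44.7 and 173 in tumor. Cenpa stood at 42.2, 46.2 and 46.6 CPM in control against 135, 43.95 and 173 in tumor, Kif11 at 23.1, 19.2 and 29.1 CPM in control against 213, 19.8 and 140.5 in tumor, Nusap1 at 19.5, 16.3 and 21.3 CPM in control against 129, 24.7 and 143 in tumor, and Racgap1 at 50, 47.7 and 63.9 CPM in control against 186, 74.03 and 69.3 in tumor (1.05 ± 0.48). VM231 exceeded VM294 for Plk1, Aurkb, Bub1, Cdc20, Kif11 and Racgap1, and the reverse held for Mki67, Cdk1, Ccnb1, Cenpa and Nusap1. The 6 myeloid precursor genes summed to 7568 CPM in VM231, 4345 in VM294 and 146 in VM236, against 20.1 to 41.2 in control spleens. The 6 plasma cell genes summed to 67740 CPM in VM294 against 2692 to 7449 in the other spleens of the set, and the 12 erythroid genes to 1513 CPM in VM236 against 77.7 to 455. The 8 macrophage and monocyte genes summed to 14970 CPM in VM231, 13840 in VM294 and 4205 in VM236, against 1418 to 1679 in control spleens. The part of these cells was not tested.

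**Figure D4:**
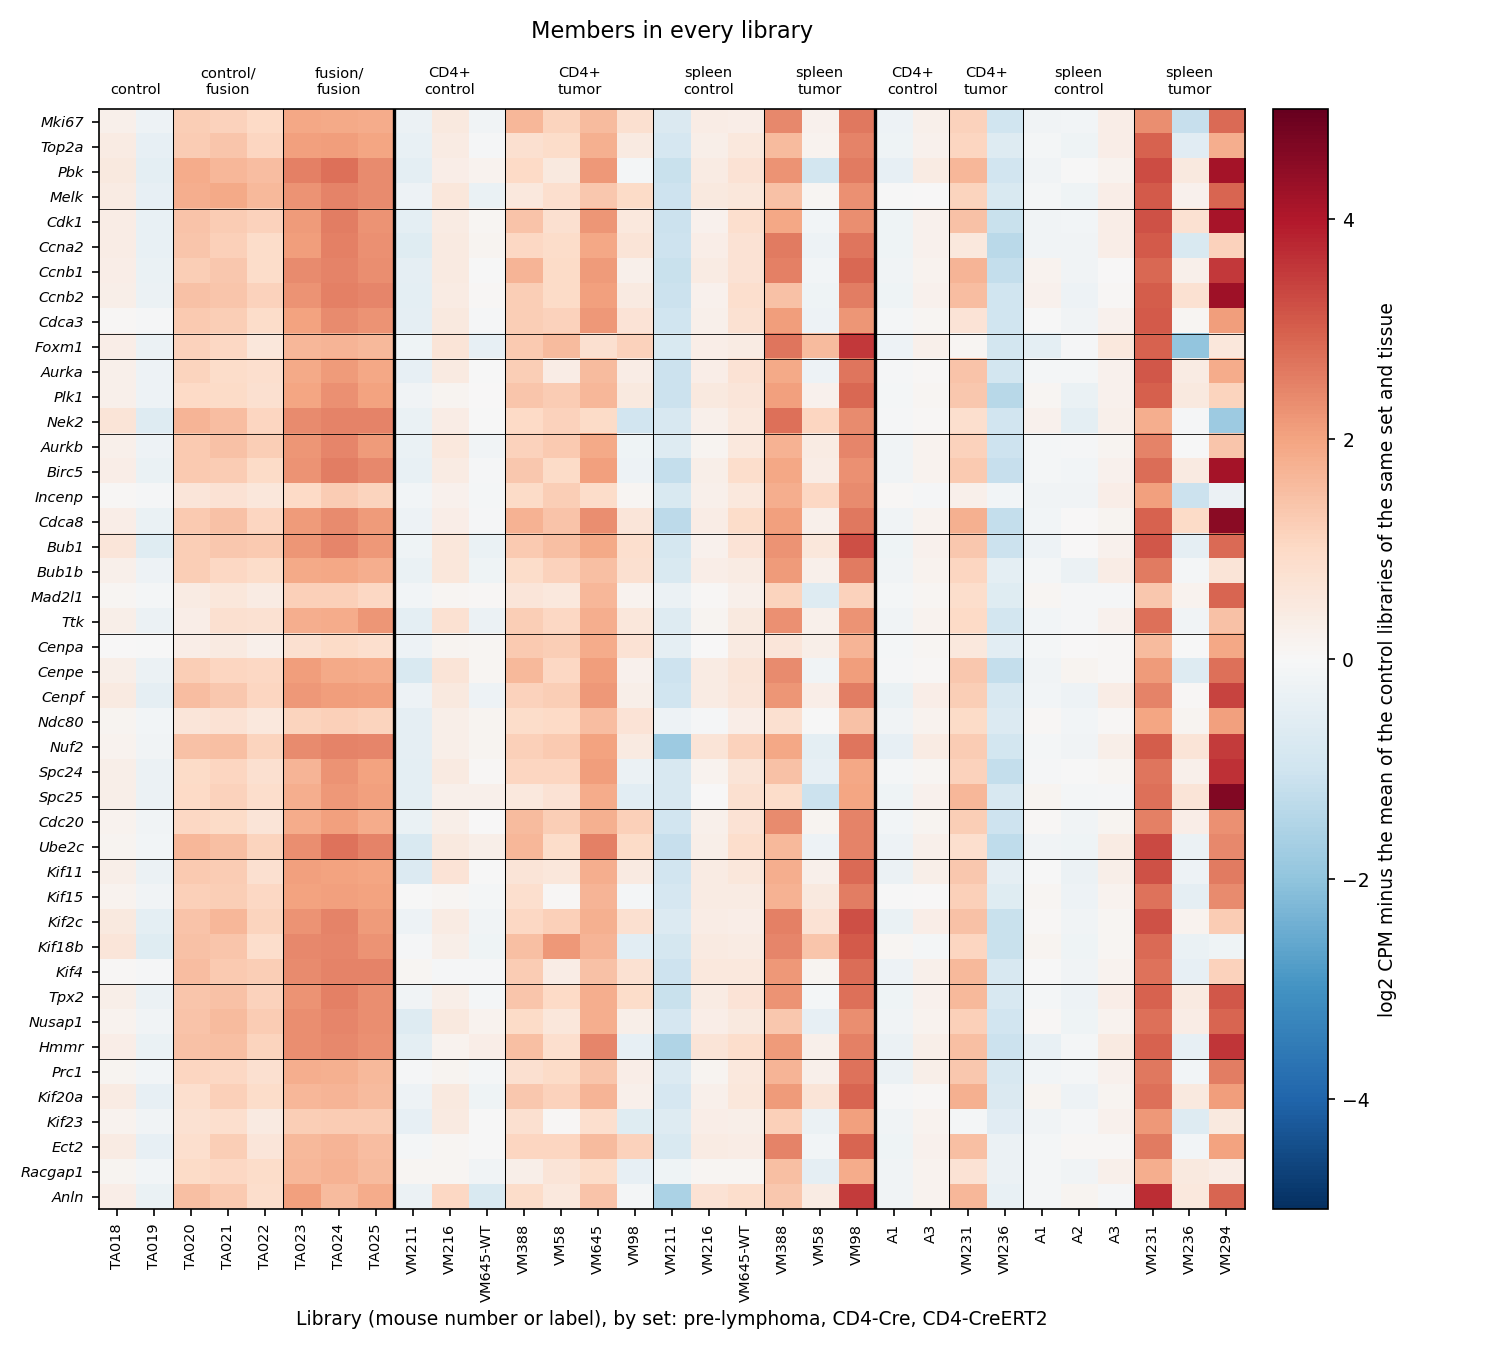
Each of the 44 genes (rows, by role) in each of the 31 libraries (columns, by set and group), coloured by log2 CPM minus the mean of the control libraries of the same set and tissue (red higher, blue lower). Every control/fusion and fusion/fusion library is above the control mean for all 44 genes, the CD4+ library of VM236 is below the control mean for all 44 genes, and the VM294 spleen runs from -1.83 (Nek2) to 4.64 (Spc25).

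Between CD4+ cells and spleen of control mice, no gene of the 44 passed in the CD4-Cre set and 15 passed in the CD4-CreERT2 set. In the CD4-Cre controls 0 of the 44 passed in either direction by edgeR, with 1 at an unadjusted p under 0.05 (39.5% of all genes in either direction) and 0 by DESeq2, a median of -0.21 and shares of 12.9% of all 17426 genes tested called higher and 12.8% called lower in CD4+ cells. With the mouse as a replicate block 1 gene was higher and 2 were lower, against 16.6% and 17.2% of all genes, and 5 were lower without the spleen of VM211, against 10.6%. The median was 0.07 without the spleen of VM645-WT. In the CD4-CreERT2 controls 15 of the 44 were higher in CD4+ cells and none lower, with a median of 0.42, where 10.3% of 16951 genes tested were called higher and 11.3% lower. These 15 include all 5 of CDK1 and its cyclins, and none of the checkpoint, kinesin and cytokinesis genes. Melk had the largest change (1.29 ± 0.23, adjusted p = 0.0046 by edgeR), from 4.75, 4.403 and 6.399 CPM in spleen to 12.1 and 12.8 in CD4+ cells, followed by Ube2c (1.05 ± 0.24) and Cdk1 (0.97 ± 0.22). The calls rest on few libraries: 1 gene passed without the spleen of A2 (5.49% of all genes), 1 without the CD4+ cells of A3 (5.18%), and 0 (0%) when all 4 groups of the set shared 1 fit.

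In tumor mice most fitted levels were higher in spleen, and none passed the test. In the CD4-Cre tumor groups the median was -0.71 in CD4+ cells against spleen, and 43 of 44 changes were negative. In the CD4-CreERT2 tumor groups it was -1.31 and all 44 were negative. By edgeR 0 of the 44 and 0% of all genes passed in both, with 2 and 0 of the 44 at an unadjusted p under 0.05 (14.2% and 3.85% of all genes) and 0 and 0 called by DESeq2. In the first the median was -0.22 without the spleen of VM98 and -1.17 without that of VM58. In the second it was -2.597 without the CD4+ cells and -0.79 without the spleen of VM231, and -0.59 without the CD4+ cells of VM236. Within tumor mice, the mean log2 CPM of CD4+ cells minus that of spleen was -2.23 in VM98, -1.08 in VM231, -0.82 in VM388, -0.41 in VM236 and 0.80 in VM58. In control mice it was 0.52 in VM211, 0.02 in VM216, -0.70 in VM645-WT, 0.34 in A1 and 0.43 in A3. The difference between the tumor effects in CD4+ cells and in spleen, tested as an interaction, was called for 0 of the 44 and for 0% of all genes in both sets, with medians of -0.62 and -1.62, 1 and 0 at an unadjusted p under 0.05 (7.32% and 2.59% of all genes), and 0 and 0 by DESeq2. Those medians were -0.07 without the spleen of VM98 and -3.11 without the CD4+ cells of VM231. These tissue and interaction fits did not pair the libraries of a mouse. The mouse as a replicate block moved none of their counts of passing genes.

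**Figure D5:**
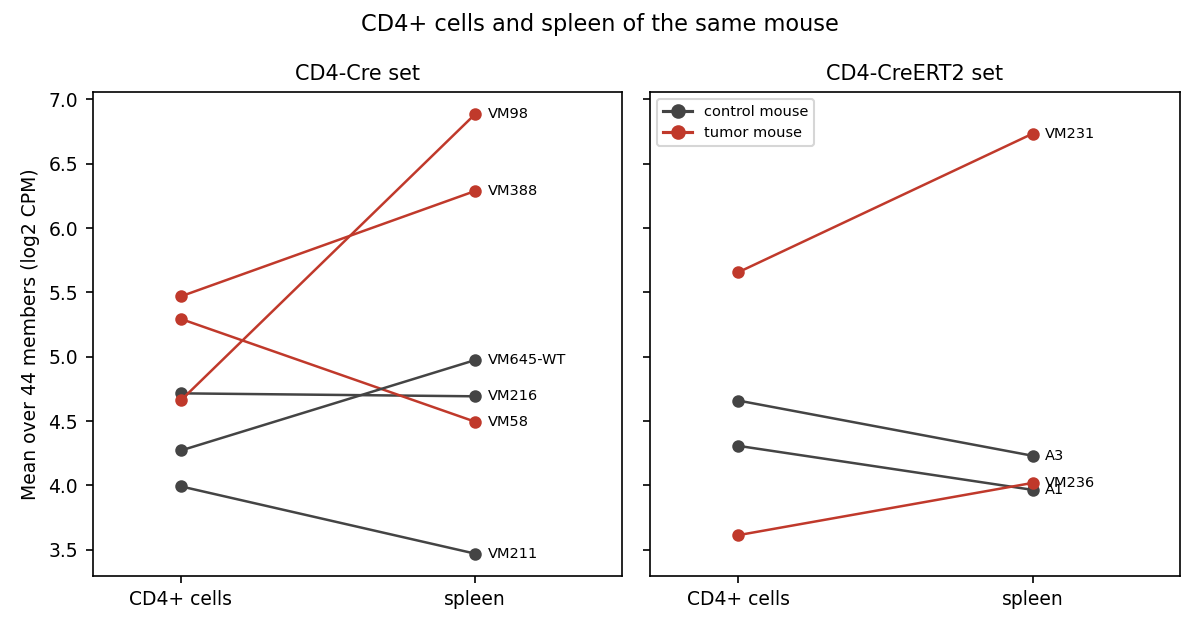
Mean log2 CPM over the 44 genes (y axis) in CD4+ cells and spleen of the same mouse (joined points), for control (grey) and tumor mice (red) of both tumor sets. The largest rise toward the spleen is that of VM98, from 4.66 to 6.89, and the line falls in VM58, from 5.29 to 4.50.

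Per kilobase of exon, the order of the 44 genes could be read in the CD4-CreERT2 set, whose tables hold gene lengths. In control CD4+ cells Cdc20 led with a mean of 23.6 CPM per kilobase (21.3 and 25.9), followed by Ccnb2 with 22.7 (19.6 and 25.8), and these do not differ beyond their spread. Ube2c (14.6), Plk1 (13.6) and Ccnb1 (13.2) came next, and their ranges overlap. Lowest were Kif15 (1.04), Cenpf (0.713) and Anln (0.639), whose last pair overlap too. In tumor spleens of that set Ccnb2 led with 129 CPM per kilobase (22.6 to 256), ahead of Cdc20 with 74.3 (23.9 to 106), and Cenpf was last with 3.32 (0.601 to 6.13).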

How the data were processed

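RNA of CD4+ cells and spleens was extracted with RNeasy Micro, amplified with SMART-Seq v4 and sequenced from Nextera XT libraries, per the labels' protocols. The submitters' processing notes name HISAT2 2.1.0, HTSeq 0.5.4 and the builds mm10 (21 libraries) or mm10 and GRCm38 (10 libraries); the use of strand is not given in the sources used here. The deposited values are raw read counts per gene, 12632196 to 37568512 per library, used as deposited. Tables of the CD4-CreERT2 set list Ensembl identifiers with exon positions and lengths, and those of the other sets list gene symbols. Each set was fitted separately with edgeR 4.0.16 (R 4.3.3; filterByExpr, TMM, quasi-likelihood F test, two-sided, Benjamini-Hochberg adjusted p under 0.05 over all genes tested). The pre-lymphoma groups shared 1 fit, and tumor and tissue comparisons used the 2 groups compared. Tissue and interaction fits did not pair the libraries of a mouse, except where a mouse block is named. Standard errors are the log2 fold change divided by the root of F, and log2 CPM uses a prior count of 2. The script was tested on simulated counts.

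Members and lists were chosen by symbol with earlier results of these data known. Genes named with full values are Mki67, Cdk1, Ccnb1, Plk1, Aurkb, Bub1, Cenpa, Cdc20, Kif11, Nusap1, Racgap1, Foxm1 and Incenp, plus the 3 largest and 3 smallest changes of a comparison; others were named after their values were seen. Replicates of a group differed beyond sampling noise. Mouse numbers in the titles pair CD4+ cells and spleen of the same mouse. Alternatives were DESeq2 1.42.0, other scaling, no filter, other sample sets, a sex term, the mouse block and leaving out each library. Promoter letters come from RefSeq (GRCm38.p6).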

Additional observations from a re-analysis of the deposited data

Results flagged for a closer look

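Among the 4 CD4+ tumor libraries of the CD4-Cre set, 3 of the 44 genes had a library far from the others, judged by its gap to the nearest library as a share of the range. Nek2 stood at 6.96 CPM in VM98, with the nearest library at 26.9. Kif11 stood at 94.8 CPM in VM645, with the nearest at 42.1, and Ect2 at 38.8 CPM in VM645, with the nearest at 28.7. These are 3 of 45 values tested, and at the 95% level used chance alone flags values at about that rate.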

How the results depend on the processing

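Of the recomputed counts of passing genes, 325 stayed within 1.5 times the reported count and 17 moved further. The 325 include counts of 0 that stayed at 0, and most reported counts were 0. Among the genes chosen for full values in every comparison, no called change reversed its direction. Of the recomputed medians, 149 stayed within the SD of the changes of the 44 genes and 22 moved further. The median of CD4+ tumor cells in the CD4-CreERT2 set turned negative without VM231. DESeq2 called 16 of the 44 higher in tumor CD4+ cells and 11 in tumor spleen of the CD4-Cre set, and 23 in tumor spleen of the CD4-CreERT2 set, where edgeR called 0. Without the filter on low counts these were 8, 5 and 6, and in CD4-Cre controls 1 gene was higher and 3 lower in CD4+ cells than in spleen. With the mouse as a replicate block, 1 was higher and 2 lower in that comparison, and the block moved no other count by over 1.5 times. With all 4 groups in 1 fit, 0 passed between tissues in CD4-CreERT2 controls. Leaving out 1 library gave 29 to 43 higher genes in control/fusion, 44 to 44 in fusion/fusion and 34 to 44 between them. It gave 0 to 10 in CD4-Cre tumor CD4+ cells, 0 to 34 in CD4-CreERT2 tumor CD4+ cells, 0 to 32 in tumor spleens of that set and 1 to 17 between tissues of its controls. Lower genes between tissues of CD4-Cre controls ran from 0 to 5. The share of all genes called moved between fits too. With VM98 left out of CD4-Cre tumor CD4+ cells, 1.44% were called higher, against 0.0168% with all libraries. In CD4-CreERT2 tumor spleens it was 4.19% without VM236, against 0%. Between tissues of CD4-CreERT2 controls it was 5.49% without the spleen of A2, against 10.3%. In CD4-Cre controls 10.6% were lower without the spleen of VM211, against 12.8%. The cause of these changes was not tested. Groups held 2 to 4 libraries, and the lowest count of any of the 44 genes in a library was 31.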

Other observations

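Levels of the 44 genes in control CD4+ cells differed between the sets. The sets were scaled separately here, and the CD4-CreERT2 tables differ from the others in layout and genes listed, so these values are descriptions. The median over the 44 genes of pre-lymphoma control minus CD4-Cre control (log2 CPM) was -1.31, and against CD4-CreERT2 controls -1.69. Mki67 went the other way, at 0.74 and 1.04. Across the 44 genes these differences followed exonic length, with a Spearman correlation of 0.61 and 0.72; the genes share libraries and are not independent. Mki67 stood 3.09 to 3.35 (log2) above the mean of the 44 genes in the pre-lymphoma libraries, 0.81 to 1.78 in the CD4-Cre set and -0.19 to 1.49 in the CD4-CreERT2 set.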
